A study of Bos taurus with 14 samples.

Results

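Mammary tissue of Holstein cows kept in short or long days was compared 9 days before calving. The comparison holds 8 of the 14 arrays of the study, the 4 labelled SD (short day, 8 h of light and 16 h of dark) and the 4 labelled LD (long day, 16 h of light and 8 h of dark) at day -9. They were chosen by their sample titles alone. The other 6 arrays, 3 per photoperiod, came from day -24 and are used for the estimate of the spread and as a second time point. The cows were not milked after dry-off, about 60 days before the expected calving, and were assigned to a photoperiod at random for the whole dry period. Lights came on at the same hour in both groups and went off later in long days, so both groups share breed, dry-off and lights-on. Each array gave 1 log2 signal for each of 24016 probe sets, and all levels and differences below are on this log2 scale, with differences as short day minus long day. The labels do not say whether each array stands for a separate cow or whether cows were biopsied at both days, so p-values measure the spread between these arrays.

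The dry period lets the mammary epithelium renew itself before the next lactation, while the gland fills with colostrum and immune cells stay in the tissue. Day length reaches the gland through melatonin and circulating prolactin, which is higher in long days, and prolactin acts on the epithelium through its receptor PRLR and the transcription factor STAT5. Cows kept in short days while dry are known to give more milk in the next lactation. The question of this comparison is what the photoperiod had changed in the gland close to calving.

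The 8 arrays were alike in overall signal, with medians between 6.54 and 6.61 and correlations across probe sets between 0.963 and 0.992. Short day array 1 and long day array 4 stood apart, at opposite ends of the first principal component (29.8% of the variance). Long day array 4 also had low signal in 280 probe sets, each lower there and in 1 day -24 array than in all the other arrays by at least 0.7. The difference between 3-prime and 5-prime control signal over 5 transcripts, a sign of RNA quality, lay between 0.84 and 0.99 in short days and between 0.80 and 1.21 in long days. The value of 1.21 was that of long day array 4, the array with the low probe sets, and the other long day arrays were at 0.99 or less. The part of RNA quality in the values that this array carries was not tested. The tissue carried its defining transcripts: the beta-lactoglobulin gene PAEP was at 13.57 to 13.81 and the epithelial regulator ELF5 at 12.46 to 12.68 in the 8 arrays (both chosen after their values were seen).

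No probe set passed an adjusted p of 0.05 (limma, 0 of 24016, 0.0%), and the smallest adjusted p was 0.984. At an unadjusted p under 0.05 there were 666 probe sets (2.77%), 346 higher in short days (1.44%) and 320 lower (1.33%), where chance gives 1200.8. In 590 probe sets (2.46%) the 4 short day and 4 long day arrays did not overlap. Chance alone gives a share of 0.0286 over the 70 arrangements of 4 against 4 arrays, so this count is not above chance. Differences of 1 or more were seen in 89 probe sets, of which 41 were higher and 48 lower in short days, and in 16 of the 89 the groups did not overlap. The median 95% interval reached 0.36 to each side of the difference. Every difference named below is therefore a measured value that did not pass the threshold.

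Of the 20 genes with the smallest p, 19 were lower in short days and in 14 the groups did not overlap. Genes picked for a small p tend not to overlap, so the 14 follow in part from the choice. Over the 9155 genes with a symbol, each by 1 probe set, 66 were higher and 168 lower at an unadjusted p under 0.05 (limma). Over all 24016 probe sets these counts were 346 and 320, so the lean to lower values was not seen across the array. The smallest p was that of the potassium channel subunit gene KCNE4. Of the 20, 2 were in the innate defence list (DEFB4A and EBD) and 3 in the macrophage list (GPNMB, CD68 and PLA2G7). These lists held 27 and 24 of the 9155 genes measured. They were chosen with earlier results of these data known, so the 2 counts are not independent support for either group.

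**Figure D1:**
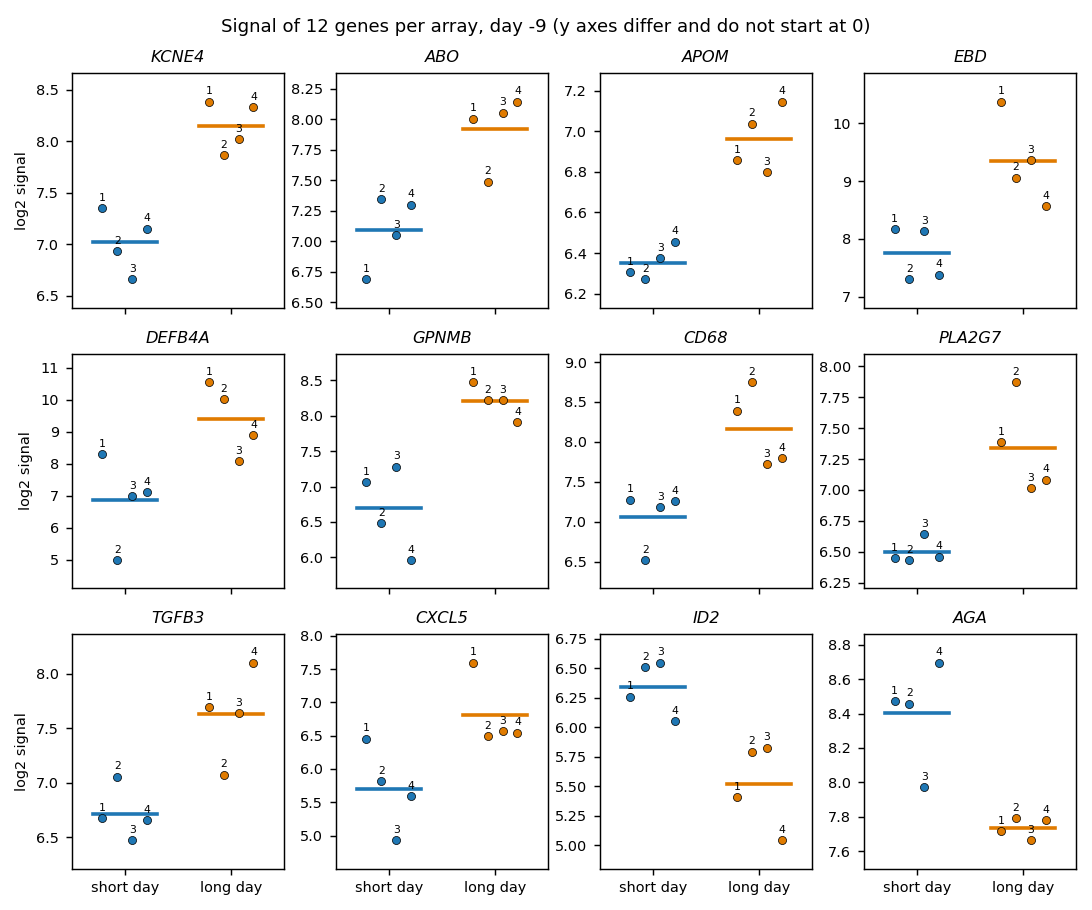
Log2 signal (y axis) of 12 genes in the 4 short day (blue) and 4 long day (orange) arrays at day -9; points are arrays, numbered by replicate, and bars are group means. In KCNE4, ABO, APOM, EBD, GPNMB, CD68, PLA2G7, TGFB3 and CXCL5 all short day points lie below all long day points, in ID2 and AGA all lie above, and in DEFB4A the ranges overlap, with 8.31 as the highest short day and 8.07 as the lowest long day value.

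Beta-defensins are small antimicrobial peptides that the mammary epithelium makes in response to bacteria and cytokines. DEFB4A was at 8.31, 4.99, 6.98 and 7.12 in the short day arrays 1 to 4 and at 10.55, 10.02, 8.07 and 8.90 in the long day arrays. EBD, the enteric beta-defensin gene, was at 8.18, 7.30, 8.14 and 7.38 in short days and at 10.38, 9.06, 9.37 and 8.57 in long days. All 4 short day arrays lay below all 4 long day arrays for EBD, while for DEFB4A short day array 1 lay above long day array 3. The differences were -2.53 for DEFB4A (95% interval -3.92 to -1.15) and -1.60 for EBD (-2.53 to -0.67). TAP, the tracheal antimicrobial peptide gene, had a low signal of 3.65 to 3.93 in short days and of 6.55, 4.33, 4.02 and 4.58 in long days, so its difference of -1.06 was carried largely by long day array 1 and was -0.50 without it. LAP, the lingual antimicrobial peptide gene, chosen after its values were seen, was at 8.59, 5.11, 5.51 and 5.19 in short days and at 9.48, 7.64, 5.70 and 8.14 in long days. A second, dimmer DEFB4A probe set differed by -1.62. These genes are alike in sequence, so a probe set may also take up signal of a neighbour in the family.

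Of the 34 innate defence genes listed, 27 were measured. Their median difference was -0.40, with 23 below 0 and 4 above, against a median of -0.04 and 39.7% above 0 over the 9155 genes with a symbol, each by 1 probe set. The list had 5 members at an unadjusted p under 0.05, all lower (DEFB4A, EBD, BPI, TAP and S100A8), where 2.56% of all genes had such a p, 0.721% higher and 1.84% lower. In 3 members the groups did not overlap, all lower in short days, against 2.3% of all genes without overlap, 0.786% higher and 1.52% lower. BPI, which encodes a neutrophil protein that permeabilises Gram-negative bacteria, was at 5.20, 5.58, 5.33 and 6.14 in short days and at 6.22 to 6.41 in long days. The calgranulin gene S100A8 was at 6.75, 4.03, 4.41 and 4.77 in short days and at 7.44, 6.68, 4.73 and 6.74 in long days. In both photoperiods the calgranulin was thus high in some arrays and low in others. The iron-binding milk protein gene LTF was abundant in all arrays, between 12.12 and 13.38, and differed by -0.45 (-1.19 to 0.30).

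Short day array 1 went with the long day arrays in much of this group. Without it the median of the innate defence list was -0.67, and the difference of LAP went from -1.64 to -2.47. Without short day array 2 the list median was -0.17, and without long day array 1 it was -0.22, so single arrays moved it by more than 1.5 times in both directions. The mean of the list, as the deviation of each array from the mean of the 8, was 0.64, -0.92, -0.45 and -0.34 in the short day arrays and 0.85, -0.09, -0.19 and 0.50 in the long day arrays, and the groups overlapped.

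Acute phase proteins, which the gland makes itself in part, were again high in short day array 1. Of 23 measured acute phase and complement genes 20 were below 0, with a median of -0.30, and 2 had an unadjusted p under 0.05, both lower (ORM1 and C2). Over all 9155 genes 5520 were below 0, and 1.84% were lower at such a p. The haptoglobin gene HP spanned the widest range, at 9.23 and 7.72 in short day arrays 1 and 4, at 5.32 or less in the other short day arrays and at 11.07, 7.40, 7.10 and 11.09 in long days, and its difference of -2.35 had an interval from -5.10 to 0.40. The complement gene C2 was at 8.17, 8.38, 8.19 and 7.68 in short days and at 8.60, 9.08, 8.67 and 8.63 in long days, without overlap (-0.64, -1.06 to -0.22). ORM1, an acute phase glycoprotein gene, was dim, at 3.78 to 4.21 in short days and at 5.28, 4.73, 3.97 and 5.26 in long days. The copper carrier gene CP was at 9.43, 7.43, 7.43 and 7.55 in short days and at 9.96, 8.89, 7.78 and 9.48 in long days. LBP, the gene of the lipopolysaccharide binding protein, chosen after its values were seen, was highest of all in short day array 1, at 11.38, against 8.37 to 8.87 in the other short day arrays and 8.80 to 10.90 in long days.

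Cytokines and chemokines as a list lay near the median of all genes, with 12 of 31 measured genes above 0 and a median of -0.06. At an unadjusted p under 0.05, 3 were lower in short days (CXCL5, CXCL8 and IL6), against 1.84% of all genes. The neutrophil attractant CXCL5 was at 6.46, 5.82, 4.93 and 5.59 in short days and at 7.60, 6.50, 6.57 and 6.55 in long days, so the groups did not overlap (-1.10, -1.89 to -0.32). CXCL8 was close to the lower end of the signal in most arrays, at 3.44 to 4.28 in short days and at 4.28, 5.90, 3.93 and 4.75 in long days. Its difference was -0.92, and -0.53 without long day array 2. IL6 was at 2.77 to 4.09 in short days and 3.53 to 4.63 in long days, a range where signal is dim. GRO1, another neutrophil attractant (chosen after its values were seen), was highest in short day array 1, at 9.93, and lay between 6.33 and 7.03 in the other short day arrays and between 7.36 and 8.84 in long days.

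Of the 19 measured neutrophil markers 9 are also in the innate defence list, so the lists are not independent of each other, and the median of each is the value of the same gene, the calgranulin S100A9 (-0.40, chosen after its value was seen). In the neutrophil list 17 of 19 genes were below 0, and 4 at an unadjusted p under 0.05, all lower. Over all 9155 genes 5520 were below 0, and 1.84% were lower at such a p. NCF4, a subunit of the oxidase that makes superoxide in phagocytes, was at 7.92, 7.46, 7.73 and 7.58 in short days and at 8.20, 8.42, 7.94 and 8.18 in long days. The ranges of NCF4 nearly met but did not overlap (-0.51, -0.83 to -0.20). TREM1, a receptor that amplifies neutrophil responses, was dim, at 3.41 to 3.76 in short days and at 4.02, 4.39, 3.64 and 5.63 in long days, and its difference of -0.84 was -0.43 without long day array 4. The neutrophil median was -0.61 without short day array 1 and -0.18 without long day array 1. The summed linear signal of the list lay between 6106 and 13144 in short days and between 7955 and 12789 in long days, and the ranges overlapped. In tissue pieces, fewer cells of a type and less RNA per cell cannot be told apart.

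Macrophages clear debris and old milk from the resting gland, and CD68 and GPNMB mark their lysosomes. CD68 was at 7.28, 6.52, 7.18 and 7.26 in short days and at 8.39, 8.75, 7.72 and 7.80 in long days, a difference of -1.11 (-1.68 to -0.53). GPNMB was at 7.06, 6.48, 7.28 and 5.97 in short days and at 8.47, 8.22, 8.22 and 7.91 in long days, a difference of -1.51 (-2.24 to -0.77). PLA2G7, the secreted enzyme that breaks down platelet-activating factor, was at 6.45, 6.43, 6.65 and 6.46 in short days and at 7.39, 7.87, 7.02 and 7.08 in long days (-0.84, -1.31 to -0.38). In these 3 genes the groups did not overlap, and short day array 1 lay with the other short day arrays, unlike in the acute phase genes. Leaving out any 1 of the 8 arrays kept CD68 between -1.25 and -0.91, GPNMB between -1.70 and -1.26 and PLA2G7 between -0.95 and -0.67. A second probe set of GPNMB differed by -0.98 and the third, at a mean signal under 4, by -0.14.

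Of 24 measured macrophage and dendritic cell markers 23 were below 0, with a median of -0.24, where 5520 of all 9155 genes were below 0. In 6 the unadjusted p was under 0.05, all lower, against 1.84% of all genes. They were GPNMB, CD68, PLA2G7, CTSK, ITGAM and, named after its value was seen, VSIG4. The protease gene CTSK was at 9.75 to 10.13 in short days and at 10.41, 10.43, 10.64 and 9.95 in long days. CSF1R, the receptor for the growth factor of macrophages (chosen after its values were seen), differed by -0.15 (-0.49 to 0.19), with 9.29 to 9.60 in short days and 9.26 to 9.98 in long days. The ranges of this receptor overlapped, while those of the lysosomal genes CD68 and GPNMB were apart. The list's summed linear signal was 10364 to 14105 in short days and 12564 to 18396 in long days. Its median was -0.12 without long day array 2 and -0.13 without short day array 1. In the fit without short day array 1, 17 of the 24 markers were below 0, against 5165 of all 9155 genes. CD163, MRC1 and MARCO, further defining markers of macrophages, were not measured under their symbols.

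Genes outside the macrophage list, put together here after the ranking was seen, also stood among those of smallest p. F13A1, the coagulation factor XIII subunit that tissue macrophages carry, was at 7.81, 6.29, 6.57 and 7.14 in short days and at 7.68, 8.34, 8.94 and 7.97 in long days. Only short day array 1 reached into the long day range, and the difference of -1.28 was -1.57 without it; its other probe sets differed by -1.15 and -0.62. PILRA, an inhibitory receptor of myeloid cells, differed by -0.76 (-1.21 to -0.31), though its second probe set differed by -0.16. MMP19, a matrix metalloproteinase gene, was at 7.80, 7.05, 7.39 and 7.62 in short days and at 8.58, 8.22, 7.71 and 8.37 in long days. A second, very dim MMP19 probe set, with group means of 2.63 and 2.61, differed by 0.02.

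Lysosomal enzymes, which break down proteins, glycans and lipids, had a median of -0.08 with 25 of 33 measured genes below 0. In 4 of them the unadjusted p was under 0.05, all lower. Over all 9155 genes 5520 were below 0, and 1.84% were lower at such a p. CTSA, the protective protein of lysosomal sialidase, was at 9.22, 9.33, 8.86 and 9.48 in short days and at 9.55, 9.83, 9.57 and 9.90 in long days, without overlap (-0.49, -0.78 to -0.20). The glucuronidase gene GUSB was at 7.29 to 7.73 in short days and 7.85 to 8.19 in long days, without overlap either. ACP5, the acid phosphatase of macrophages and osteoclasts, differed by -0.36, and its 2 other probe sets by -0.37 and -0.27. AGA, which removes the sugar from asparagine in glycoprotein breakdown, went the other way, at 8.47, 8.46, 7.97 and 8.70 in short days and at 7.66 to 7.79 in long days. This AGA probe set differed by 0.66 (0.33 to 0.99), and the second, brighter one by -0.03.

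**Figure D2:**
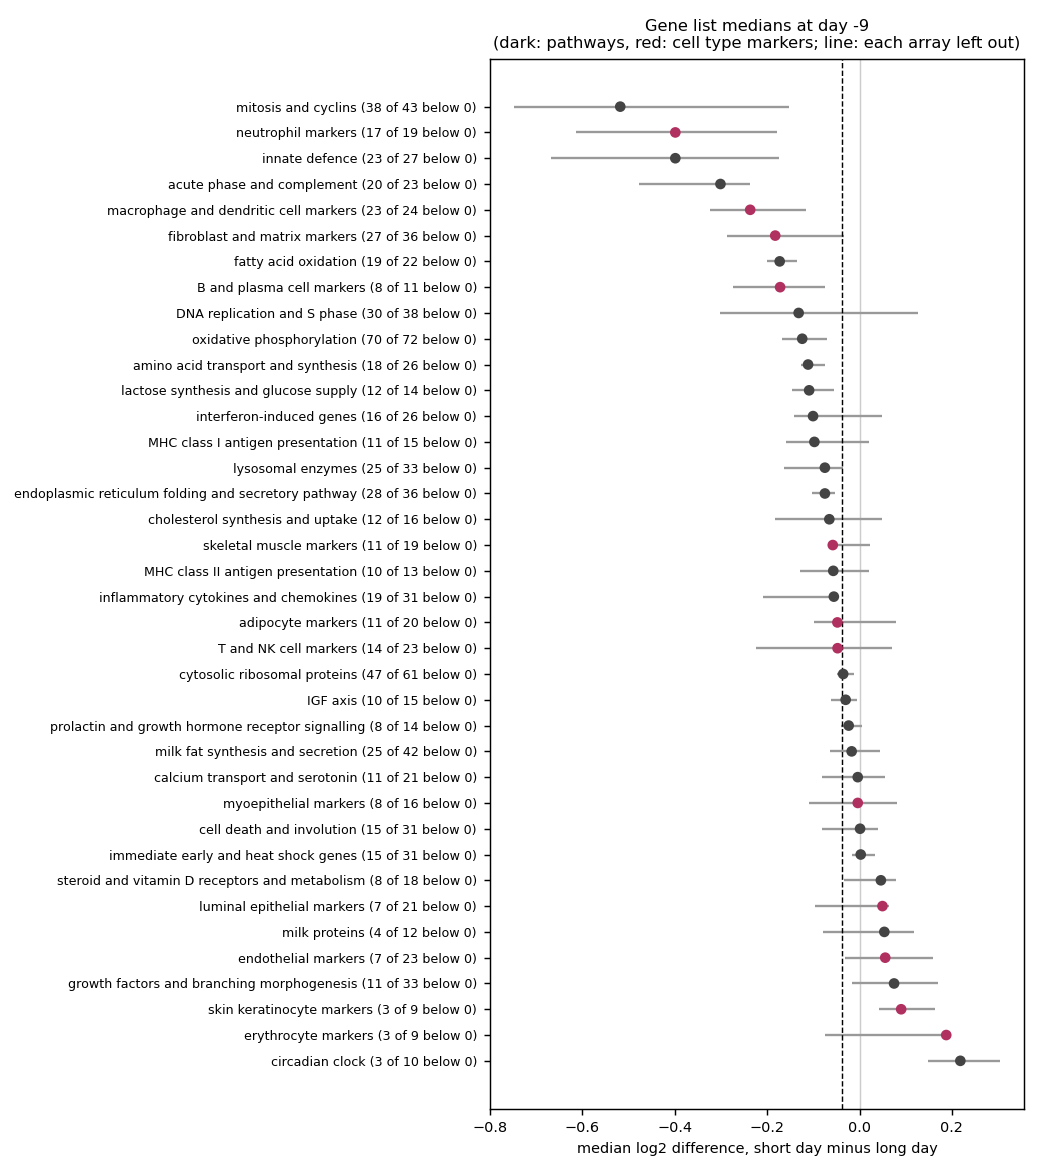
Median log2 difference, short minus long days at day -9 (x axis), over the measured genes of each list, with the count of genes below 0; the thin line spans the medians when each of the 8 arrays is left out in turn, and the dashed line marks the median of all 9155 genes, -0.04. Mitosis (-0.52), innate defence (-0.40) and neutrophil markers (-0.40) lie farthest to the left and the circadian clock (0.22) farthest to the right; the innate defence and neutrophil lists share 9 genes.

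Among markers of lymphocytes, T and NK cell markers had a median of -0.05 (9 of 23 above 0), and B and plasma cell markers one of -0.17 (3 of 11 above 0). The immunoglobulin heavy chain gene IGHM differed by -0.48 (-1.20 to 0.24) and PRF1, the pore-forming protein of killer cells, by -0.63 (-1.26 to -0.01). At an unadjusted p under 0.05 (limma) the T and NK list held 1 higher gene (KLRD1, 0.37) and 1 lower (PRF1). The B and plasma list held 1 higher (CD38, 0.43) and 0 lower. Over all genes 0.721% were higher and 1.84% lower at such a p. Interferon-induced genes had a median of -0.10 with 10 of 26 above 0. Among them OAS1X, a sensor of viral RNA, was at 4.55, 6.11, 6.36 and 5.99 in short days and at 4.61, 4.36, 5.38 and 4.44 in long days, and was higher in 3 of 4 short day arrays than in any long day array (1.06, 0.04 to 2.08).

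The MHC class II genes of the DQ family had the largest differences of all named genes, and their values fell into separate levels within each group. BOLA-DQA5 was at 2.69, 2.71, 3.52 and 8.11 in short days and at 2.49, 11.67, 10.93 and 10.83 in long days. BOLA-DQB followed it, at 3.65 to 3.72 in 3 short day arrays, 6.82 in array 4, 3.62 in long day array 1 and 9.66 to 11.07 in the other long day arrays. BOLA-DQA1, by its brighter probe set, was at 9.25 to 10.21 in short days and at 9.28, 2.99, 9.02 and 4.15 in long days, with overlap. Its other probe set did not overlap, by the narrowest margin, at 8.46 to 9.44 in short days and at 2.82 to 8.45 in long days. The gene was near the bottom of the signal in long day arrays 2 and 4 and high in the 6 other arrays. DQ genes are highly polymorphic and vary in number between cattle. The non-DQ class II genes BOLA-DRA and BOLA-DRB3, chosen after their values were seen, differed by -0.00 (-0.26 to 0.25) and -0.03 (-0.38 to 0.31), while the second, dimmer probe set of BOLA-DRB3 differed by -0.83. The class II list as a whole had a median of -0.06 over 13 measured genes. Its 5 genes at an unadjusted p under 0.05 held 2 higher (BOLA-DQA1 and BOLA-DQA2) and 3 lower. Over all genes 0.721% were higher and 1.84% lower at such a p.

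Genes of cell division gave the largest list median, and its size rested largely on 1 array. Of 43 measured mitosis and cyclin genes 38 were below 0, with a median of -0.52, where 5520 of all 9155 genes were below 0. At an unadjusted p under 0.05 there was 1 gene, lower in short days, against 1.84% of all genes. This was MAD2L1, a component of the spindle checkpoint, at 5.52, 6.99, 7.27 and 6.66 in short days and at 7.73, 7.55, 7.85 and 7.51 in long days. CENPF, a kinetochore gene, was at 6.55, 8.24, 8.68 and 8.11 in short days and at 8.79, 8.16, 8.85 and 9.60 in long days. CCNB1, the cyclin that starts mitosis, was at 5.11, 6.98, 7.39 and 6.84 in short days and at 7.02 to 7.68 in long days. Short day array 1 was the lowest in all 3 genes, and without it the list median was -0.15, with 31 of 43 genes below 0. Over all genes the median was -0.02 without that array, with 5165 of 9155 below 0. The mean deviation of the list was -1.25 in that array and between -0.14 and 0.33 in the other short day arrays, against -0.01 to 0.40 in long days. For MAD2L1 the difference was -0.68 without that array. At day -24 the list had the opposite sign, with a median of 0.52 and 38 of 43 genes above 0.

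DNA replication genes had a median of -0.13, with 30 of 38 measured genes below 0, and of 0.13 without short day array 1, and at day -24 the median was 0.20 with 33 genes above 0. PRIM1, the catalytic subunit of primase, was at 5.52, 6.04, 5.95 and 5.31 in short days and at 5.30, 5.28, 5.42 and 4.72 in long days (0.52, 0.06 to 0.98), and PRIM2, its partner subunit, differed by -0.21 (-0.52 to 0.09). Growth factors and morphogenesis genes had a median of 0.07 (22 of 33 above 0). TGFB3, a growth factor that rises when the gland involutes, was at 6.67, 7.06, 6.47 and 6.66 in short days and at 7.69, 7.07, 7.64 and 8.10 in long days. Its groups touched at 7.06 and 7.07 without overlapping (-0.91, -1.45 to -0.37). ID2, an inhibitor of basic helix-loop-helix factors that mouse alveoli need to develop, was at 6.26, 6.51, 6.55 and 6.05 in short days and at 5.41, 5.79, 5.83 and 5.04 in long days (0.82, 0.32 to 1.33). A second and brighter ID2 probe set differed by 0.45.

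**Figure D3:**
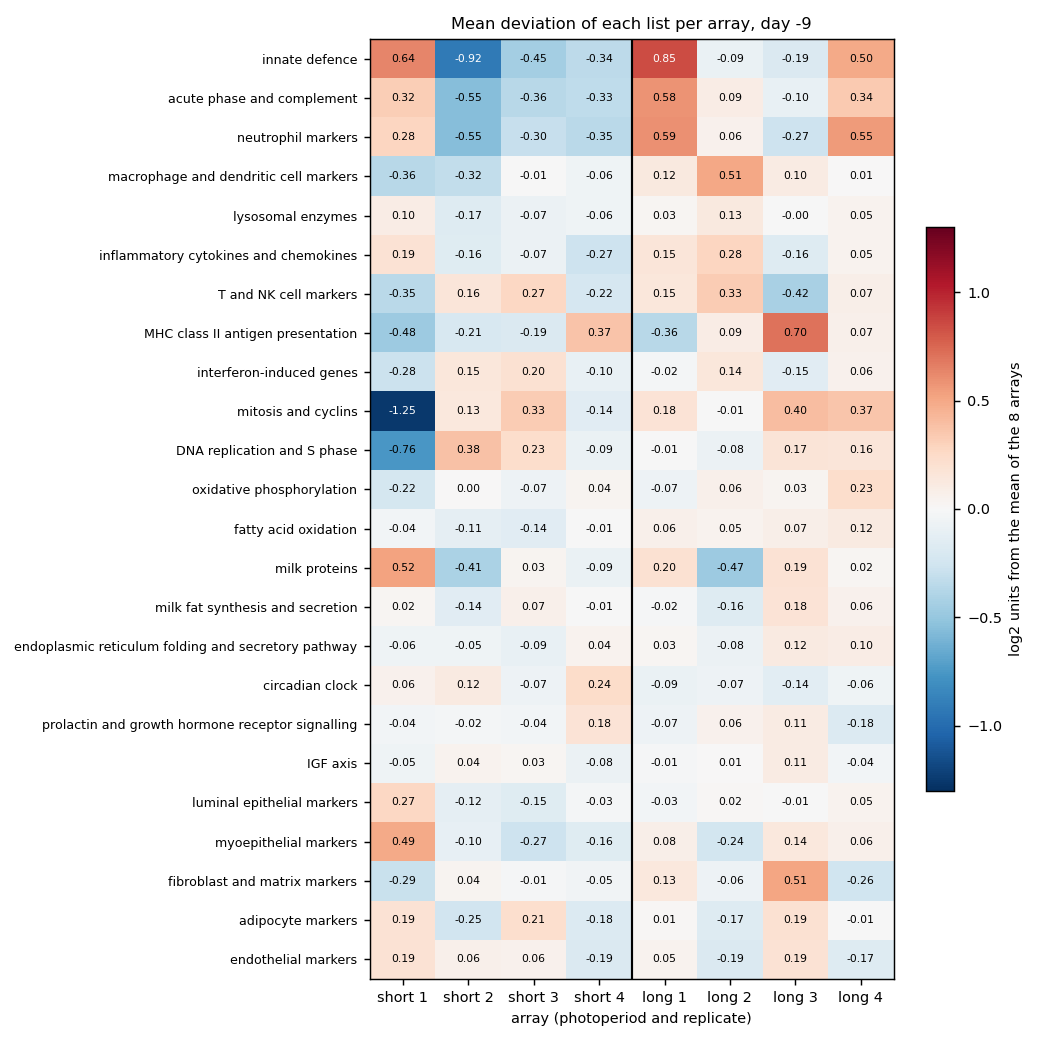
Mean deviation of each list (rows) in each of the 8 arrays (columns) from the mean of the 8 arrays, in log2 units, colour from blue (below) to red (above). Short day array 1 is the lowest for mitosis (-1.25) and replication (-0.76) genes and, with long day array 1, among the highest for innate defence genes (0.64 and 0.85).

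Prolactin and growth hormone signalling genes were not shown to differ between the groups at this day, and the intervals of several were wide. The 14 measured genes of this list had a median of -0.02, with 6 above 0 and 0 at an unadjusted p under 0.05 (limma). Over all genes 2.56% had such a p, so a list of this size can hold 0 by chance. PRLR was at 9.77 to 10.38 in short days and at 9.76, 9.80, 10.23 and 8.49 in long days. The PRLR probe set is among those with low signal in long day array 4, and its difference of 0.45 (-0.31 to 1.21) was 0.09 without that array. STAT5B differed by -0.36 (-1.35 to 0.64), and the feedback inhibitors SOCS2 and SOCS3 by -0.04 and -0.15. The growth hormone receptor gene GHR differed by 0.33 (-0.69 to 1.35). In the IGF list, with a median of -0.03 over 15 genes, IGF1 was at 5.30, 6.03, 5.95 and 6.05 in short days and at 6.53, 6.37, 6.23 and 4.33 in long days. Without long day array 4, whose IGF1 signal was also low, the difference went from -0.03 to -0.55. The other IGF1 probe sets, each at a mean signal under 6, differed by -0.28, -0.14 and -0.15. The binding protein genes IGFBP4 and IGFBP2 differed by -0.40 each, with intervals that spanned 0.

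Milk protein genes were at the top of the signal in both photoperiods and did not separate them. The casein genes CSN2 and CSN1S1 were at 12.72 to 13.06 and 12.10 to 12.55 in short days and at 12.62 to 12.96 and 11.98 to 12.35 in long days. LALBA, the regulatory subunit of lactose synthase, was at 12.50 to 13.38 in short days and 12.71 to 13.13 in long days, a difference of 0.04 (-0.62 to 0.69). The differences were 0.07 for CSN2 (-0.20 to 0.35) and 0.11 for CSN1S1 (-0.22 to 0.43). Array signal is compressed near its upper end, so such an interval holds for the signal rather than for the amount of RNA. LPO, the lactoperoxidase gene, varied most in the list, from 5.17 to 10.78 in short days and from 3.47 to 8.66 in long days.

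Lists of lactose synthesis (median -0.11, 2 of 14 above 0), milk fat synthesis (-0.02, 17 of 42 above 0) and cholesterol synthesis (-0.07, 4 of 16 above 0) held 0 genes at an unadjusted p under 0.05 (limma). Such a p was found in 2.56% of all genes, so lists of this size can hold 0 by chance. PGM1, the enzyme that interconverts glucose phosphates, was at 8.47 to 8.68 in short days and 8.76 to 8.94 in long days, without overlap, with a difference of -0.25 (-0.52 to 0.02). The other, dimmer PGM1 probe set differed by 0.04. The fatty acid synthase gene FASN differed by -0.23 (-0.61 to 0.15). Of the oxidative phosphorylation genes 70 of 72 were below 0 with a median of -0.12, and of the fatty acid oxidation genes 19 of 22 with a median of -0.17, where 5520 of all 9155 genes were below 0. Both lists again held 0 genes at an unadjusted p under 0.05 (limma). The mean deviations of the oxidative phosphorylation list overlapped, at -0.22, 0.00, -0.07 and 0.04 in short days and at -0.07, 0.06, 0.03 and 0.23 in long days, with the extremes in short day array 1 and long day array 4. Those of the fatty acid oxidation list did not, at -0.04, -0.11, -0.14 and -0.01 in short days and 0.06, 0.05, 0.07 and 0.12 in long days. Chance gives such a separation at a share of 0.0286 per list. At day -24 the medians were 0.09 for both lists, with 62 of 72 and 18 of 22 genes above 0. The median ranged from -0.17 to -0.07 for oxidative phosphorylation and from -0.20 to -0.13 for fatty acid oxidation over the 8 refits without 1 array. The ATP synthase subunit gene ATP5MF was at 10.14 to 10.43 in short days and 10.43 to 10.79 in long days, where the ranges met without overlapping. Endoplasmic reticulum and secretory genes had a median of -0.08 (28 of 36 below 0) and ribosomal protein genes one of -0.04 (47 of 61 below 0), against -0.04 for all genes.

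Circadian clock genes were the list with the highest median, 0.22, with 7 of 10 measured genes above 0. The clock is a loop in which PER and CRY proteins repress their own transcription. PER2 was at 8.57, 8.32, 8.36 and 7.78 in short days and at 7.91, 8.00, 7.54 and 7.67 in long days, so 3 short day arrays lay above all long day arrays (0.48, 0.05 to 0.90). Its second probe set differed by 0.42. CRY1 was at 8.36 to 8.90 in short days and 8.08 to 8.55 in long days, and differed by 0.26 (-0.13 to 0.66). The nuclear receptor gene RORA and the repressor gene BHLHE40 differed by 0.38 and 0.37 with intervals that spanned 0, and NFIL3, chosen after its values were seen, by -0.19. CLOCK, ARNTL and PER1, the core of the loop, were not measured under their symbols. The median stayed between 0.15 and 0.30 when each array was left out. Clock transcripts follow the hour of the day, which the labels do not give for the biopsies, so its part in these values was not tested.

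Of 36 measured fibroblast and matrix genes 27 were below 0, with a median of -0.18, against 5520 of 9155 and -0.04 for all genes. In 3 the unadjusted p was under 0.05, all lower, against 1.84% of all genes. PDGFRA, the receptor that marks fibroblasts, was at 8.87, 8.74, 8.58 and 8.46 in short days and at 8.99 to 9.20 in long days, without overlap (-0.46, -0.84 to -0.08), while its 2 dimmer probe sets differed by 0.03 and 0.02. The proteoglycan gene DCN was at 10.89, 11.62, 11.35 and 11.51 in short days and at 11.67 to 11.84 in long days, without overlap, and BGN differed by -0.62 (-1.13 to -0.10). The fibroblast median was -0.06 without short day array 1 and -0.03 without long day array 3. The list's summed linear signal was 37928 to 51768 in short days and 44303 to 65161 in long days.

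Markers of the epithelium did not separate the groups: luminal markers had a median of 0.05 (14 of 21 above 0) and myoepithelial markers one of -0.00 (8 of 16 above 0). KRT18, a luminal keratin, ranged from 7.59 to 8.88 in short days and from 7.52 to 9.06 in long days. The intermediate filament gene DES, which smooth and skeletal muscle share, was at 6.09 to 6.79 in short days and at 8.24, 6.30, 8.38 and 6.86 in long days. Endothelial markers had a median of 0.06 (16 of 23 above 0) and adipocyte markers one of -0.05 (9 of 20 above 0). The adipocyte hormone gene ADIPOQ was at 2.98 to 4.03 in all 8 arrays, under the 25th percentile of all probe sets, which was 4.52. The summed signal of luminal markers was 33837 to 45340 in short days and 35945 to 37450 in long days, and that of adipocyte markers 5156 to 9903 and 5480 to 7319. Skeletal muscle, erythrocyte and skin keratinocyte markers had medians of -0.06, 0.19 and 0.09 over 19, 9 and 9 genes. The part of cell composition in the differences of single genes was not tested.

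Several genes outside these groups separated the photoperiods. KCNE4, a subunit that dampens voltage-gated potassium channels, had the smallest p of all probe sets, at 7.35, 6.93, 6.66 and 7.15 in short days and at 8.39, 7.86, 8.02 and 8.33 in long days. Its group means were 7.02 ± 0.30 and 8.15 ± 0.25 (standard deviation, n = 4 each), a 2.19-fold difference, and leaving out any 1 array kept the difference between -1.24 and -1.01. ABO, the glycosyltransferase of the blood group antigens, was at 6.69, 7.35, 7.05 and 7.30 in short days and at 8.00, 7.49, 8.05 and 8.14 in long days (-0.83, -1.20 to -0.45), while its 2 other probe sets differed by -0.13 and -0.30. APOM, the lipoprotein that carries sphingosine-1-phosphate, was at 6.27 to 6.46 in short days and 6.80 to 7.15 in long days (-0.61, -0.89 to -0.32), and its second probe set gave -0.50. For APOM both probe sets therefore gave a similar difference.

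The mitochondrial phosphatase gene PPM1K, which switches on branched-chain amino acid breakdown, differed by -0.50 in the probe set of smallest p but by 0.10, 0.21 and 0.38 in its 3 others. NMB, the neuropeptide neuromedin B, was at 5.94, 6.28, 6.54 and 6.27 in short days and at 6.64 to 7.03 in long days. FBP1, an enzyme of gluconeogenesis, was at 5.32 to 5.74 in short days and 5.99 to 6.19 in long days. Both NMB (-0.61, -0.96 to -0.26) and FBP1 (-0.58, -0.90 to -0.25) had no overlap between the groups. The sorting nexin gene SNX24 differed by -0.79 (-1.24 to -0.34), and its groups overlapped. SYT17, a synaptotagmin gene, differed by -0.65 in a probe set under 5 in every array and by -0.59 in a brighter one. IGSF1 (-0.72) was under 5 in every array too. H2BC19, a histone H2B gene, was at 7.11, 6.60, 6.81 and 7.28 in short days and at 7.65, 7.62, 8.31 and 7.61 in long days, without overlap (-0.85, -1.56 to -0.13).

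On the side of higher signal in short days, the 10 genes of largest difference without overlap rested on long day array 4 for the most part. Besides BOLA-DQA1, by its probe set without overlap, ID2 and AGA they were WBP4, C2CD5, STX6, TIA1, THOC2, CSNK1G3 and PRPF39, several of which act in splicing or RNA handling (WBP4, TIA1, THOC2 and PRPF39). In 8 of the 10 that array, which also had the highest difference of 3-prime and 5-prime signal (1.21), was the lowest of the long day arrays, and the part of RNA quality was not tested. TIA1 was at 6.50 to 6.65 in short days and at 6.43, 6.48, 6.20 and 4.81 in long days, and its difference of 0.60 was 0.21 without array 4. THOC2 went from 0.58 to 0.35 and CSNK1G3 from 0.53 to 0.35. PRPF39 was at 6.49 to 6.62 in short days and at 6.30, 6.04, 6.21 and 5.64 in long days, and went from 0.50 to 0.36. STX6, which directs vesicles in the Golgi, was at 7.50 to 7.86 in short days and at 7.34, 7.02, 7.27 and 6.50 in long days, but its second and brighter probe set differed by 0.01. The brightest other probe sets of C2CD5 and CSNK1G3 differed by 0.09 and 0.16, against 0.70 and 0.53 in the probe sets named, and those of TIA1, PRPF39 and WBP4 by 0.53, 0.50 and 0.26. Among all 322 probe sets whose short day arrays lay above the long day arrays (1.34%), long day array 4 was the lowest long day array in 175, and among the 268 that lay below (1.12%) it was the highest in 133. On the side of lower signal, that array was the highest in 2 of the 10 genes of largest difference.

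**Figure D4:**
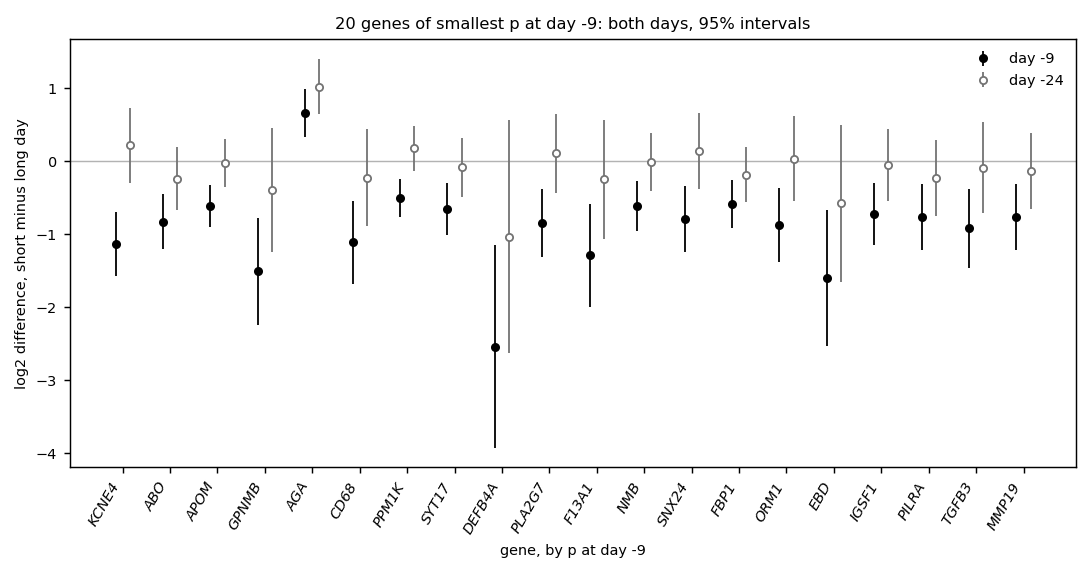
Log2 difference, short minus long days, with 95% limma intervals, for the 20 genes of smallest p at day -9 (x axis), at day -9 (filled points, 4 arrays per group) and at day -24 (open points, 3 arrays per group). The genes were chosen by their day -9 values; at day -24, 16 of the 20 differences are under 0.3 in size, and DEFB4A (-1.03) and AGA (1.03) are the widest.

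The arrays of day -24 gave other values for most of these genes. Of the 20 genes of smallest p at day -9, 15 had the same sign at day -24 and 16 had a day -24 difference under 0.3 in size. KCNE4 differed by 0.22 at day -24 and by -1.13 at day -9, PLA2G7 by 0.11 and -0.84, and ID2 by -0.68 and 0.82. For DEFB4A (-1.03 and -2.53), EBD (-0.57 and -1.60) and AGA (1.03 and 0.66) both days had the same sign. The test of the difference between the days, the photoperiod by day interaction, called 0 of 24016 probe sets at an adjusted p of 0.05 (0.0%, limma), with 997 at an unadjusted p under 0.05 (4.15%) and a smallest adjusted p of 0.900. Over all probe sets 38.4% had the same sign at both days. Of the 322 probe sets whose short day arrays lay above the long day arrays at day -9, 27.6% had the same sign at day -24, and of the 268 that lay below, 35.1%. The median of the innate defence list was -0.01 at day -24 with 15 of 27 genes below 0, and that of the macrophage list -0.06 with 14 of 24. A difference at day -9 is therefore not shown to be particular to that day. Photoperiod groups at both days may share cows, which the labels do not tell.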

How the data were processed

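Mammary RNA of 14 samples was measured on an Affymetrix bovine expression array, and the authors deposited 1 log2 value per probe set and array, made with RMA (robust multi-array averaging) per the submitters' processing notes. The software, its version and the genome build are not given in the sources used here. RMA normalizes all arrays to 1 distribution, so a change shared by most transcripts cannot be seen, and it understates differences of dim and of very bright probe sets. Arrays have no read depth, and their number limits the precision.

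Of 24128 probe sets 112 controls were left out and 24016 were tested, of which 13292 have 1 gene symbol in the platform annotation, 86 have several and 10638 have none here. Genes in lists (9155 in all) were represented by the probe set of highest mean. Group means of the 14 arrays were fitted with limma 3.58.1 in R 4.3.3, short day minus long day at day -9 was tested with Benjamini-Hochberg adjustment over all probe sets, and the interaction with day was tested in the same fit. Named genes are the 20 of smallest p, the 10 highest and 10 lowest differences without overlap where the brighter group had a mean of at least 6, up to 5 per list by p, and a set of prolactin, milk, IGF, clock and keratin genes. The members and lists were chosen with earlier results of these data known, and lists are described by counts and medians with no test. On simulated data at this design, 67.0% of 200 probe sets changed 2-fold were recovered at an adjusted p of 0.05, with 10 false calls. Of 200 changed 4-fold, 96.5% were recovered, with 12 false calls. The simulation gives no recovery rate for the measured arrays, among which short day array 1 and long day array 4 stood apart. Calling 0 probe sets there does not exclude 2-fold changes. Alternatives were filters on dim probe sets, the arrays in the fit, the prior, array weights, normalization, leaving out arrays, a replicate block and the choice of probe set.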

Additional observations from a re-analysis of the deposited data

Results flagged for a closer look

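Among 204 groups of 4 arrays examined (98 probe sets and 4 list means, in short and in long days), 18 held an array far from the other 3, by a gap that took up more of the range than Dixon's 95% critical value allows, where chance gives about 1 in 20.

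In short day array 1, LAP was at 8.59 (others 5.11 to 5.51), CP at 9.43 (7.43 to 7.55), LBP at 11.38 (8.37 to 8.87) and LTF at 13.38 (12.12 to 12.29), all above the other short day arrays, and IGF1 at 5.30 was below them (5.95 to 6.05). In long day array 4, CSNK1G3 was at 7.05 (others 7.69 to 7.80), THOC2 at 6.45 (7.33 to 7.41), TIA1 at 4.81 (6.20 to 6.48) and IGF1 at 4.33 (6.23 to 6.53), all below the other long day arrays. So 9 of the 18 lay in those arrays, which also stood apart on the first principal component.

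Class II genes had separate levels: BOLA-DQB was at 6.82 in short day array 4 (others 3.65 to 3.72), BOLA-DQA5 at 8.11 in the same array (2.69 to 3.52), and BOLA-DQA5 at 2.49 in long day array 1 (10.83 to 11.67). Among macrophage genes, CD68 was at 6.52 in short day array 2 (7.18 to 7.28), PLA2G7 at 6.65 in short day array 3 (6.43 to 6.46) and ITGAM at 2.80 in short day array 4 (2.55 to 2.59). In long days, C2 was at 9.08 in array 2 (8.60 to 8.67), CXCL5 at 7.60 in array 1 (6.50 to 6.57) and H2BC19 at 8.31 in array 3 (7.61 to 7.65).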

How the results depend on the processing

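Under all 17 alternatives limma called 0 probe sets at an adjusted p of 0.05, and 0 for the interaction under the 15 in which it was fitted. Counts at an unadjusted p under 0.05 (346 higher and 320 lower) were 217 higher with a mean signal of at least 5, 160 higher and 189 lower with at least 6, where fewer probe sets were tested, and 850 higher and 698 lower with array weights, whose smallest adjusted p was 0.134. Leaving out 1 array gave 213 to 516 higher and 269 to 475 lower, with 213 higher without long day array 4. List medians ranged over these refits from -0.67 to -0.17 for innate defence, -0.32 to -0.12 for macrophage markers, -0.61 to -0.18 for neutrophil markers and -0.75 to -0.15 for mitosis, and kept their sign under every alternative run. Of 1636 differences of named genes and probe sets under alternatives 28 turned sign, in 8 genes, none of which had an unadjusted p under 0.05. Deviations of same-numbered arrays correlated at 0.30, 0.05, 0.06 and -0.02, and those of other pairs at -0.30 to 0.23. So few values cannot tell whether the numbers pair the arrays, and the labels do not say. With the replicate number as a block in the fit of the 8 arrays the counts were 647 higher and 572 lower. Without the block the same 8 arrays gave 491 higher and 441 lower, and both fits gave 0 at an adjusted p of 0.05 (limma). Dim probe sets such as those of TAP, ORM1, IL6 and TREM1 limit what can be read from their differences.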

Other observations

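Of the probe sets with no gene symbol here, the 3 of smallest p, chosen after their values were seen, separated the photoperiods without overlap and had the same sign at day -24. One was at 7.33, 5.81, 7.39 and 6.27 in short days and at 10.80, 10.23, 8.30 and 9.15 in long days, a log2 difference of -2.92 (95% interval -4.09 to -1.75), and differed by -1.65 at day -24. It bears the same transcript identifier on the array as the DEFB4A probe set, apart from the suffix, so it repeats the DEFB4A values rather than adding a separate gene. Another was at 8.75 to 8.93 in short days and 9.28 to 9.45 in long days, a difference of -0.52 at day -9 and of -0.49 at day -24. The third was higher in short days, at 5.48 to 5.69 against 4.99 to 5.16, with differences of 0.51 and 0.55. None passed an adjusted p of 0.05.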
